A study of Mus musculus with 18 samples.

Results

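The duodenum and the adjoining stomach of mouse embryos were compared at E16.5, where E stands for embryonic day, when the lining of the gut is acquiring its regional functions. The comparison took the 3 arrays labelled duodenum at E16.5 and the 3 labelled stomach at E16.5, which are 6 of the 18 arrays in the series. Genes were measured by array probe sets that carry exactly 1 gene symbol, and a gene with several was represented by the one that was brightest on average across all 18, which gave 18193 genes. The other arrays hold pylorus of the same age and the 3 tissues at E14.5, and of these the E14.5 stomach and duodenum are used below.

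The small intestine and the stomach form side by side from the foregut and midgut endoderm and the mesenchyme around it. The intestinal lining becomes a columnar epithelium whose absorptive cells, the enterocytes, carry a brush border of microvilli studded with peptidases, sugar-cleaving enzymes and nutrient transporters, and they package dietary fat into lipoproteins. The gastric lining becomes a glandular epithelium that secretes acid, proteases and protective mucus, and in the mouse the front part of the stomach is lined by a stratified squamous epithelium. The transcription factors CDX2 and SOX2 act on opposite sides of this boundary, CDX2 in the intestine and SOX2 in the foregut, and signals such as Hedgehog and BMP pass between epithelium and mesenchyme.

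All embryos were of the strain C57Bl/6J and no treatment or mutation was involved. At E16.5, 95 embryos were dissected, and neighbouring segments of antrum (the stomach next to the pylorus), pylorus and duodenum were taken from each gut. The tissue of each kind was divided at random among 3 samples, so every array measured a pool of many embryos and the numbers of the pools do not mark individual animals. The p-values below measure the spread between pools, which is not the variation between embryos. At E14.5, 174 embryos were treated in the same way, and the first 2 duodenal arrays of that age differed so little (SD of their log2 difference 0.079, against 0.177 to 0.497 in the other pairs of replicates) that they were averaged into 1 sample.

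Levels are log2 intensities, in which a step of 1 is a doubling, and are given for pools 1, 2 and 3 in that order. Levels of different genes are not compared, because probe sets differ in brightness. Differences are duodenum minus stomach on the log2 scale ± SE from limma, and a gene was called higher or lower where its Benjamini-Hochberg adjusted p over all 18193 genes was under 0.05. The spread of each gene was estimated over the 6 groups of the series together. The median log2 intensity of the 6 arrays lay between 6.75 and 6.84. The 5th percentile of all genes in them was 4.5, where signal and array background cannot be told apart. Differences with 1 tissue near that level, as for Tmprss15, Slc15a1 and Lipf in stomach and Hoxc8 in duodenum, are best read as minima.

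Before the results, 4 pools need a description. Stomach pool 2 carried more of the intestinal genes than the other stomach pools: of the 582 genes called at least 4-fold higher in duodenum, it was the highest of the 3 stomach pools in 396 (68.0%), with a median excess of 0.27 over the mean of the other 2, while pools 1 and 3 were highest in 64 and 115. Duodenum pool 3 stood apart in the reverse sense for genes of the gastric surface, with a mean level over that list of 8.23 against 7.31 and 7.41 in duodenum pools 1 and 2. Over the 332 genes called at least 4-fold lower it stood out less. It was the highest duodenum pool in 134 (40.4%), with a median excess of 0.09, while pools 1 and 2 were highest in 86 and 109. Immediate-early and heat-shock genes, which respond within minutes to handling and stress, had mean levels of 9.82, 9.48 and 11.71 in the stomach pools and 11.58, 9.60 and 9.76 in the duodenum pools. Fos stood at 10.37, 10.25 and 13.21 in stomach and at 12.90, 9.93 and 10.30 in duodenum, so that 1 pool of each tissue was high. Stomach pool 3 also had the highest level of smooth muscle genes (11.18 against 10.52 and 10.49) and of squamous genes (10.54 against 9.60 and 9.91). The part of these pools in the results was not tested beyond leaving each pool out in turn, and called genes whose difference moves by more than 1.5-fold without a pool are given with that value. The median difference of the immediate-early list was -0.04 with all pools, -0.64 without duodenum pool 1 and 0.60 without stomach pool 3. Its sign turned without stomach pool 3, duodenum pool 2 or duodenum pool 3. Centring each array on its median over the genes tested turned it too.

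The tissues differed in a large share of the genes measured. In all, 8387 genes were called, 46.1% of those tested, of which 4152 (22.8%) were higher in duodenum and 4235 (23.3%) lower. With each array centred on its median over the genes tested, which moves the median difference of all genes by 0.11, 62.6% of calls were higher in place of 49.5%. At least a 4-fold difference was found in 914 genes (5.02%), 582 of them higher (3.20%) and 332 lower (1.82%). At 16-fold or more 209 genes differed (1.15%), 167 higher (0.918%) and 42 lower (0.231%). The 3 duodenum pools lay above all stomach pools in 25.5% of genes and below them in 24.9%. These percentages are the background for the counts below. In bulk tissue fewer cells of a type and less RNA per cell cannot be told apart.

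**Figure D1:**
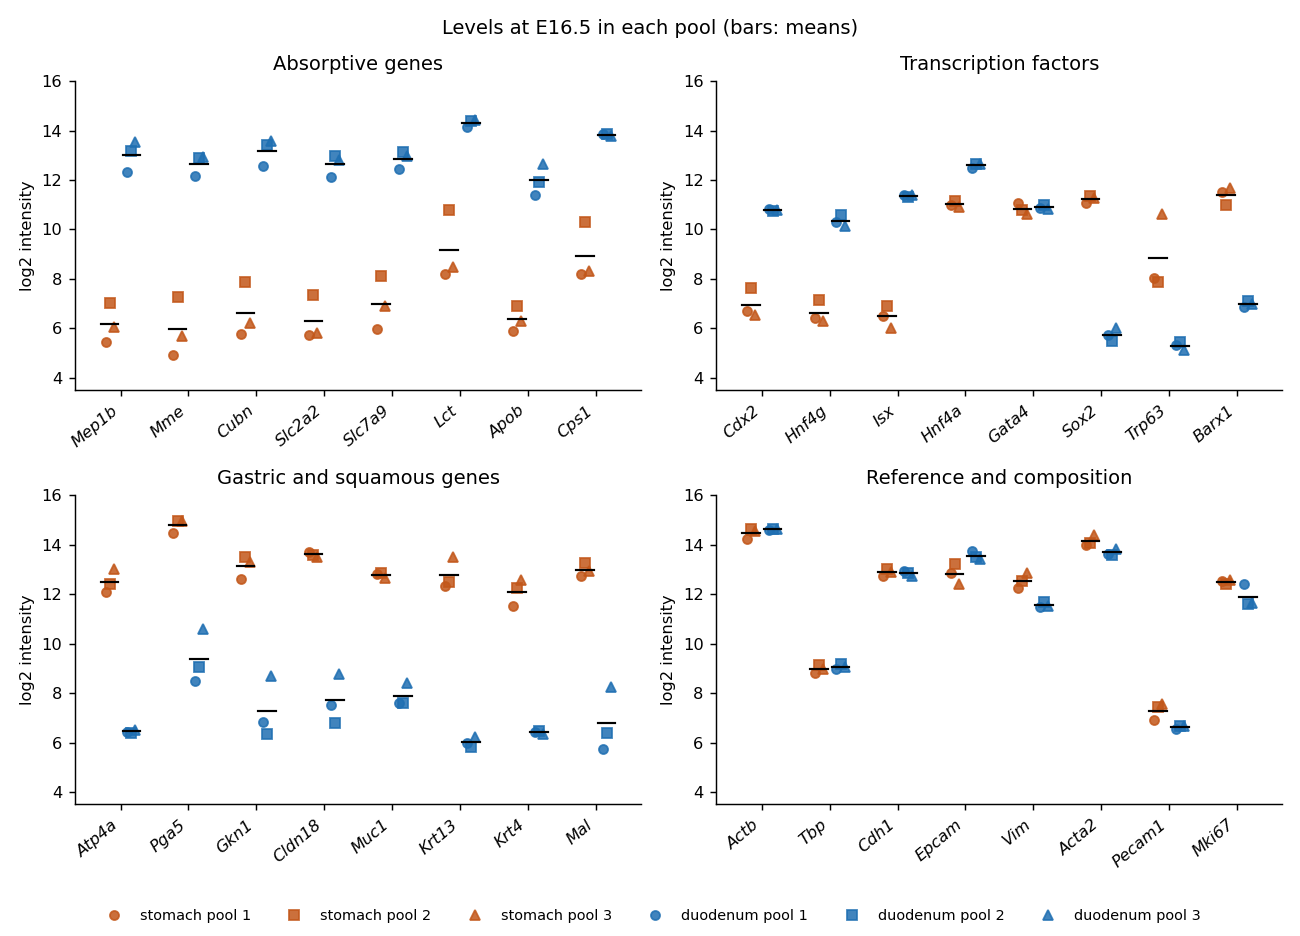
Log2 intensity (vertical axis) of genes in 4 panels in each pool of E16.5 stomach (orange) and duodenum (blue), with symbols for pools 1, 2 and 3 and black bars for the mean of 3 pools. The absorptive genes and the gastric and squamous genes do not overlap between the tissues, and the square of stomach pool 2 is the highest stomach point of all 8 absorptive genes, while Actb, Tbp and Cdh1 overlap.

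Peptidases of the brush border, which trim dietary peptides at the cell surface, were higher in duodenum without exception among those measured. All 10 were called higher, with a median difference of 3.49 against 0.03 over all genes, and 8 of the 10 were at least 4-fold higher. Without dim genes 8 were left, all called, with a median of 4.09. Mep1b encodes the beta subunit of meprin, a metalloendopeptidase. Its level was 5.46, 7.04 and 6.05 in the stomach pools and 12.31, 13.17 and 13.54 in the duodenum pools, a difference of 6.82 ± 0.51 (113-fold, limma adjusted p = 4.92e-08). Every duodenum pool was thus more than 5 log2 units above every stomach pool, with stomach pool 2 the highest of its tissue. Mme, which encodes the endopeptidase neprilysin, had a difference of 6.69 ± 0.51, or 7.34 without stomach pool 2. The aminopeptidase gene Enpep stood at 9.01, 9.63 and 9.55 against 12.80, 13.42 and 13.13 (3.72 ± 0.39). Ace (3.25 ± 0.30), which encodes the angiotensin-converting dipeptidase, and Dpp4 (2.66 ± 0.26), which removes dipeptides ending in proline, were also higher. The smallest differences of the group were those of Xpnpep2 (0.57 ± 0.12) and Tmprss15 (0.69 ± 0.21). Tmprss15 encodes enteropeptidase, the enzyme that activates trypsinogen in the duodenum, and it stood at 4.54, 4.44 and 4.52 in stomach and 4.81, 4.83 and 5.93 in duodenum, so that duodenum pool 3 was well above the other pools. Its call was lost when the 6 arrays were fitted alone (limma adjusted p = 0.0891).

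Enzymes that cleave sugars and phosphates followed the peptidases. Of 6 measured, 5 were called higher, with a median of 5.0 (4.21 with probe sets of a gene averaged). Lct encodes lactase, which digests the sugar of milk and is therefore made ahead of birth. It was at 8.18, 10.79 and 8.49 in stomach and at 14.13, 14.38 and 14.41 in duodenum (5.15 ± 0.97, limma adjusted p = 0.000427). Stomach pool 2 lay more than 2 log2 units above the other stomach pools, and without it the difference was 5.97. Mgam, which encodes maltase-glucoamylase, showed 5.40, 7.19 and 5.29 against 12.21, 11.98 and 12.06 (6.12 ± 0.69, or 6.74 without stomach pool 2). The alkaline phosphatase gene Alpi differed by 5.17 ± 0.82, while its neighbour in function Akp3 was not called (0.15 ± 0.14, interval -0.16 to 0.46). The phosphodiesterase gene Enpp3 differed by 4.86 ± 0.27, but its 5 probe sets ranged from 0.18 to 5.43. Treh, for trehalase, was called higher at 0.53 ± 0.16, and the pools of the tissues overlapped. Its call was lost when duodenum pool 2 or pool 3 was left out (limma adjusted p up to 0.0818) and with the 6 arrays alone (0.0691).

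Genes of the microvillus scaffold were also mostly higher in duodenum. Of 14 measured genes 11 were called higher and 1 lower, with a median of 2.42. The protocadherins Cdhr2 and Cdhr5, which tether the tips of neighbouring microvilli, differed by 5.48 ± 0.53 and 5.38 ± 0.47. Their cytoplasmic partners Myo7b, Ush1c and Anks4b differed by 4.13 ± 0.32, 3.85 ± 0.26 and 3.90 ± 0.35. Vil1, the gene of the actin bundler villin, was at 9.55, 9.89 and 9.21 in stomach and 12.39, 12.65 and 12.59 in duodenum (2.99 ± 0.30). The villin-like gene Vill went the other way and stood at 10.11, 10.58 and 9.89 in stomach against 7.09, 6.96 and 7.45 in duodenum (-3.03 ± 0.20, limma adjusted p = 1.41e-08). Ezr, for ezrin, which links membrane and actin in many epithelia, was not called (0.09 ± 0.11, interval -0.14 to 0.32).

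Transporters for sugars, amino acids and peptides were called higher in 13 of 14 cases with none lower, with a median of 4.31. Slc5a1, the sodium-driven glucose carrier SGLT1 of the apical membrane, stood at 6.54, 7.97 and 7.23 in stomach and at 12.37, 12.90 and 12.87 in duodenum (5.47 ± 0.46). Slc2a2, the glucose carrier GLUT2, differed by 6.32 ± 0.41. The subunits Slc7a9 and Slc3a1, which together take up cystine and dibasic amino acids, differed by 5.83 ± 0.68 and 5.07 ± 0.48. The neutral amino acid carriers Slc6a19 and Slc6a20a differed by 4.77 ± 0.41 and 5.24 ± 0.58. Slc15a1, the peptide carrier PEPT1, was at 4.33, 4.89 and 4.46 against 8.29, 9.58 and 9.26 (4.48 ± 0.29). For each of these 7 genes all duodenum pools lay above all stomach pools. Slc1a1, a glutamate carrier, was the member not called (0.24 ± 0.12, interval -0.02 to 0.51).

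Carriers of salts and bile acids were more divided, with 8 of 12 called higher and 2 lower. The chloride and bicarbonate exchangers Slc26a3 and Slc26a6 differed by 6.43 ± 0.77 and 3.95 ± 0.31, and the sodium and proton exchanger Slc9a3 by 4.29 ± 0.31. Only some probe sets of 2 of these genes showed the difference, with a range of 0.54 to 6.71 over the 4 of Slc26a3 and values of 0.24 and 4.29 for Slc9a3. The chloride channel gene Cftr stood at 7.18, 7.13 and 6.27 in stomach and 10.43, 10.64 and 10.60 in duodenum (3.70 ± 0.24). The basolateral bile acid exporter is made of Slc51a and Slc51b, and these were higher by 4.42 ± 0.52 and 2.88 ± 0.20. The apical importer Slc10a2 and its cytosolic partner Fabp6, which belong to the ileum in later life, were not called (0.13 ± 0.09 and -0.08 ± 0.10), and Fabp6 lay between 4.65 and 5.01 in every pool. The called members on the stomach side, Slc12a2 (-0.92 ± 0.14) and Slc4a4 (-0.61 ± 0.14, its probe sets from -0.61 to 0.05), are basolateral carriers of secretory epithelia.

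For metals, phosphate and vitamins, 14 of 16 genes were higher and 2 lower, with a median of 2.74. Cubn and Amn encode the receptor for vitamin B12 bound to intrinsic factor. Cubn differed by 6.57 ± 0.71 and Amn by 5.90 ± 0.70, or by 7.19 and 6.54 without stomach pool 2. The intestinal phosphate carrier Slc34a2 stood at 6.63, 7.66 and 6.77 against 12.03, 12.68 and 12.77 (5.47 ± 0.48). The iron genes did not move as a block. The importer Slc11a2, the copper oxidase Heph and the exporter Slc40a1 were higher by 4.38 ± 0.25, 4.35 ± 0.20 and 2.71 ± 0.22, while the reductase Cybrd1 was lower at 10.93, 11.64 and 11.20 in stomach and 10.19, 10.43 and 10.71 in duodenum (-0.81 ± 0.24, and -0.62 with an adjusted p of 0.063 without stomach pool 2). The 4 probe sets of Slc11a2 ranged from 0.37 to 4.38. The calcium genes were split as well. The cytosolic calcium carrier S100g was higher by 2.43 ± 0.36, and the apical calcium channel Trpv6 was at 10.12, 9.83 and 9.55 in stomach and 7.38, 7.25 and 7.31 in duodenum (-2.52 ± 0.16, limma adjusted p = 1.12e-08).

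Fat handling was among the most uniform groups. Of 23 measured genes 22 were called higher and 1 lower, with a median of 3.09 (3.69 without stomach pool 2), and 18 were at least 4-fold higher. Apob, the scaffold protein of chylomicrons, stood at 5.91, 6.91 and 6.28 in stomach and 11.40, 11.92 and 12.66 in duodenum (5.63 ± 0.51, its 2 probe sets at 2.61 and 5.63). Mttp, which loads lipid onto it, differed by 4.96 ± 0.84, Apoc2 by 5.47 ± 0.54 and Apoc3 by 4.98 ± 1.01. The last of these was 5.67 without stomach pool 2. Npc1l1, the sterol importer of the brush border, differed by 4.72 ± 0.58. Abcg5 and Abcg8, which together return sterols to the lumen, differed by 4.54 ± 0.41 and 1.87 ± 0.31, and duodenum pool 1 was the lowest of its tissue in both (8.85 against 10.39 and 11.35 for Abcg5, whose difference was 5.21 without that pool). The fatty acid binders Fabp1 and Fabp2 stood near the top of the scale in duodenum, between 14.95 and 15.06, and at 10.78, 13.39 and 11.93 (Fabp1) and 10.38, 12.60 and 11.83 (Fabp2) in stomach. Their differences were 3.02 ± 0.90 and 3.39 ± 0.68. Whether these probe sets were saturated was not tested, so the differences are best read as minima. The same limit applies to other genes near the top, such as Apoc3 in duodenum and Pga5 and Tff1 in stomach. The wide spread of the stomach pools bore on Fabp1 and Fabp2: Fabp1 was 3.69 without stomach pool 2 and 2.39, with an adjusted p of 0.0641, without stomach pool 1, and Fabp2 was 2.77 without stomach pool 1. The brush border phospholipase Plb1 was the member called lower (-1.03 ± 0.20). Its probe sets ranged from -1.03 to 0.15, and their mean was not called (-0.22, limma adjusted p = 0.0551).

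Metabolic genes that enterocytes use were called higher more often than lower, to varying degrees. Of 14 genes of fatty acid oxidation 13 were higher, though the median was only 1.03, with Ehhadh, a peroxisomal enzyme, at 3.19 ± 0.33 and the mitochondrial enzymes Acadl and Cpt2 at 1.52 ± 0.17 and 1.41 ± 0.16. Of 10 genes of the urea cycle and arginine metabolism 7 were higher and 1 lower. The mitochondrial steps stood out: Cps1, which makes carbamoyl phosphate, was at 8.21, 10.30 and 8.32 in stomach and 13.86, 13.85 and 13.77 in duodenum (4.88 ± 0.71, or 5.56 without stomach pool 2), and Otc, the next enzyme, differed by 5.99 ± 0.76 (6.61 without that pool). Nags, whose product activates CPS1, differed by 4.26 ± 0.49. Asl and Ass1 of the cytosol were higher by 2.11 ± 0.21 and 0.78 ± 0.12. The last enzyme of the cycle, Arg1, was lower, with 8.51, 8.29 and 8.99 in stomach against 5.38, 6.47 and 6.04 in duodenum (-2.63 ± 0.40, limma adjusted p = 6.45e-05).

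Genes for the disposal of drugs and steroids included 13 of 20 higher and 2 lower. The glucuronosyltransferase Ugt2b5 differed by 6.77 ± 0.78, the export pump Abcc2 by 5.70 ± 0.51 and the xenobiotic sensor Nr1i3 by 3.08 ± 0.25. The glutathione transferases Gsta4 and Gstm1 were higher in stomach, Gsta4 at 14.07, 14.25 and 14.04 against 11.19, 11.35 and 11.56 (-2.75 ± 0.19) and Gstm1 by -1.71 ± 0.16. Vitamin A genes lay on both sides, with 8 of 17 higher and 7 lower. Uptake and storage genes were among the higher ones: Lrat, which esterifies retinol, differed by 6.30 ± 0.49 and Rbp2, the retinol carrier of enterocytes, by 3.74 ± 0.73. The lower ones included the retinoic acid receptor Rarb (-1.68 ± 0.23) and the binding proteins Crabp1 (-1.37 ± 0.32) and Crabp2 (-1.37 ± 0.33). Of the enzymes that make retinoic acid, Aldh1a3 was higher by 2.59 ± 0.32 and Aldh1a2 lower (-0.55 ± 0.16), a call lost without duodenum pool 2 or stomach pool 3 (-0.46 in both cases, limma adjusted p up to 0.0539). The 3 probe sets of Aldh1a3 ranged from 0.55 to 2.59. Cholesterol synthesis showed smaller differences, with 7 of 15 higher, 2 lower and a median of 0.30. Dhcr7, for the last step of the pathway, was at 10.14, 10.15 and 10.23 against 11.70, 11.56 and 11.65 (1.46 ± 0.16), while the epoxidase Sqle and the regulator Srebf2 were both lower (-0.69 ± 0.10 and -0.69 ± 0.13).

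**Figure D2:**
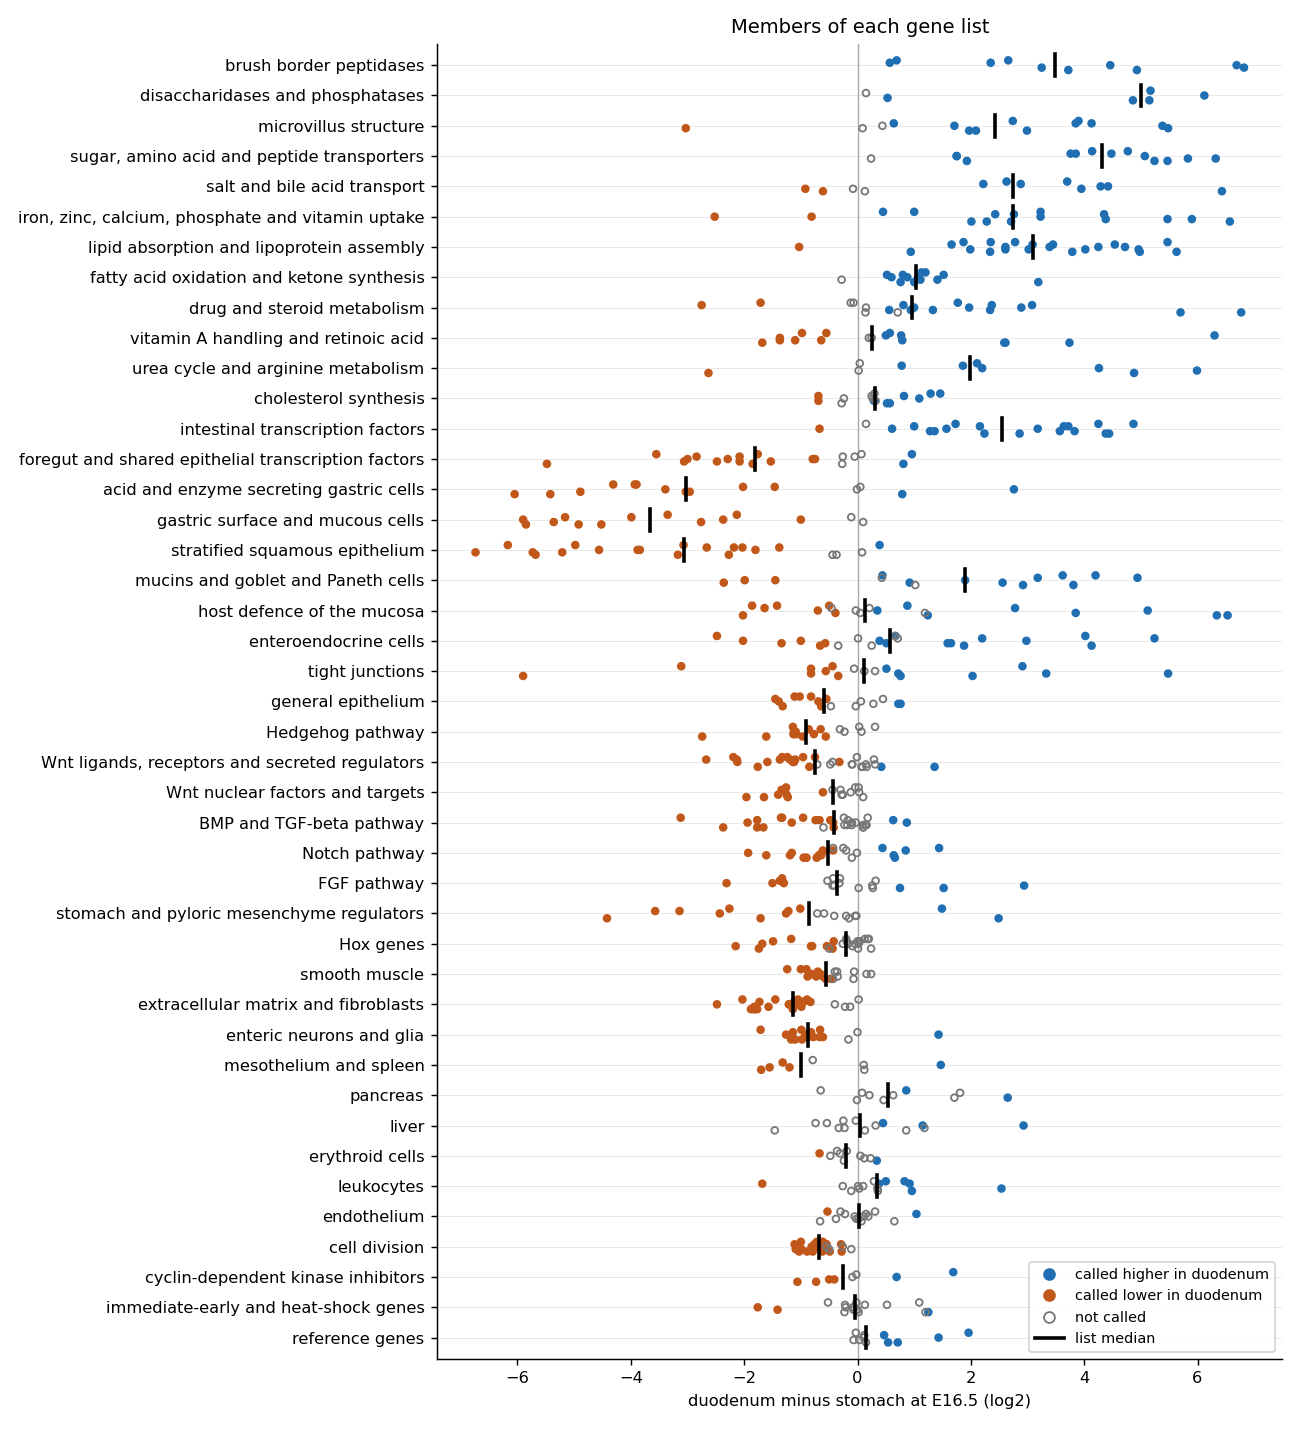
Difference between duodenum and stomach at E16.5 (horizontal axis, log2) for every measured member of the gene lists, with filled points for genes called higher (blue) or lower (orange), open points for genes not called, and a black bar for the list median. The absorptive lists at the top have medians of 2.42 to 5.0, the gastric and squamous lists of -3.03 to -3.67, and the liver, endothelial and immediate-early lists sit at 0.05, 0.02 and -0.04, the last with a range of -0.64 to 0.60 when 1 pool is left out.

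Promoters of a few named genes are printed so that the letters can be read beside the values. Each is the 250 bases before the annotated start in RefSeq (build GRCm38.p6), 5′ to 3′ on the strand of the gene. A gene with several listed starts is represented, here and in the shares below, by the first listed. Whether these tissues use that start was not tested. Capitals mark matches on either strand to 4 short patterns: GTTAAT, a core recognised by HNF1 factors, CAAAGTCC for HNF4, TTTATNG for CDX and AGATAA for GATA. On the opposite strand the CDX pattern includes CTATAAA, which holds a TATA box core, as in Rbp2. The genes were chosen from those with a match, after their matches were seen.
Slc3a1 (chr17:85028097-85028346, plus strand): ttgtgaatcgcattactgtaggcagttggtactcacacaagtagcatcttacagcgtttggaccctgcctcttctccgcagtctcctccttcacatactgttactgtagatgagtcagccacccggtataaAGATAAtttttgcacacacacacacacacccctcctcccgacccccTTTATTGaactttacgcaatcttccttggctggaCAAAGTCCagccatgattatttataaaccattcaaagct
Rbp2 (chr9:98490287-98490536, plus strand): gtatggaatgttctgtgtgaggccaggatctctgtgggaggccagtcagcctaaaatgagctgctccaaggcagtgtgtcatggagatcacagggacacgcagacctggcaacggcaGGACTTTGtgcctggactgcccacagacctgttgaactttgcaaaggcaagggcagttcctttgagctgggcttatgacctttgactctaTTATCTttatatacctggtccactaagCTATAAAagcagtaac
Apoc2 (chr7:19677942-19678191, minus strand): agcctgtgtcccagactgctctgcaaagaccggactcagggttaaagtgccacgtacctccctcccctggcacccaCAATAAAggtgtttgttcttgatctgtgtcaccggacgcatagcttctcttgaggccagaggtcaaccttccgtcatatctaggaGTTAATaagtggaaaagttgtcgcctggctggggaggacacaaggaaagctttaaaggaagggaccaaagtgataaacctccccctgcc
Alpi (chr1:87101607-87101856, minus strand): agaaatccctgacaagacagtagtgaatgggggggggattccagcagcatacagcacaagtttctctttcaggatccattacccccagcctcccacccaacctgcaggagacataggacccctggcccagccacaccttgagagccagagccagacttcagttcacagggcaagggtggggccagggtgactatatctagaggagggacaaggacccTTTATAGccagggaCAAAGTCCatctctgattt
Cldn18 (chr9:99717268-99717517, minus strand): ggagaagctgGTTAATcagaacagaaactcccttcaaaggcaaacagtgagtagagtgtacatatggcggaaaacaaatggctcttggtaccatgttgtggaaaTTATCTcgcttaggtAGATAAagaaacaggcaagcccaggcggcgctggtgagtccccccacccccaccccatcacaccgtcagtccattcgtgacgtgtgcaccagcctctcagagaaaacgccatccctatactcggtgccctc

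These 5 promoters belong to 4 genes higher in duodenum and to Cldn18, a gastric tight junction gene that was lower (-5.90 ± 0.52). The printed stretch of Cldn18 holds GTTAAT and AGATAA but no match to the other patterns. Over all genes tested, 14452 had a promoter in the table, and 4.69% of these held GTTAAT, 1.34% CAAAGTCC, 7.69% TTTATNG and 7.47% AGATAA. Among the genes at least 4-fold higher (464 with a promoter) the shares were 10.6%, 5.17%, 11% and 12.3%. Among those at least 4-fold lower (239 with a promoter) they were 5.02%, 1.26%, 10% and 6.69%. For the absorptive lists (77 with a promoter) they were 14.3%, 7.79%, 18.2% and 10.4%. For the gastric and squamous lists (32 with a promoter) 3 promoters (9.38%) held each of the patterns except CAAAGTCC, which none held. The shares are descriptions without a test, and a match shows letters, not binding.

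Transcription factors of the intestine were called higher in 18 of 20 cases, with a median of 2.55. Cdx2 stood at 6.69, 7.63 and 6.54 in stomach and at 10.82, 10.75 and 10.79 in duodenum, a difference of 3.83 ± 0.24 (14.3-fold, limma adjusted p = 1.19e-08), and its relative Cdx1 differed by 4.44 ± 0.56. The stomach pools varied more than the duodenum pools, and pool 2 was again the highest. Isx, a homeobox gene that restrains vitamin A uptake, was at 6.52, 6.92 and 6.03 against 11.39, 11.31 and 11.38 (4.87 ± 0.21). Prdm1, which holds back adult enterocyte genes before weaning, differed by 4.38 ± 0.35. The related nuclear receptors Hnf4a and Hnf4g differed to unequal degrees. Hnf4g was at 6.42, 7.16 and 6.28 against 10.30, 10.58 and 10.15 (3.72 ± 0.34), whereas Hnf4a was already at 10.97, 11.17 and 10.91 in stomach and reached 12.50, 12.64 and 12.63 (1.57 ± 0.16). The bile acid receptor Nr1h4 and the lipid sensor Ppara were higher by 3.64 ± 0.34 and 3.18 ± 0.32, and Creb3l3, which drives apolipoprotein genes, by 4.25 ± 0.35. Pdx1, needed at the border of antrum and duodenum, differed by 1.0 ± 0.15. Tcf7l2, the Wnt effector of intestinal crypts, was called lower (-0.67 ± 0.19), but its pools overlapped and its 4 probe sets ranged from -0.67 to 0.29, with a mean of -0.05 that was not called.

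Of 20 foregut and shared epithelial factors, 14 were called lower and 2 higher, with a median of -1.80. Sox2 was at 11.07, 11.34 and 11.26 in stomach and 5.74, 5.48 and 6.01 in duodenum (-5.48 ± 0.40, 44.6-fold, limma adjusted p = 3.74e-08), with no overlap and little spread within either tissue. The forkhead genes Foxa1, Foxa2 and Foxa3, which open chromatin throughout the endoderm, were all lower, with differences of -3.06 ± 0.25, -3.0 ± 0.29 and -2.08 ± 0.14. Foxa1 was at 12.97, 13.20 and 13.08 against 10.23, 9.90 and 9.93. Trp63, the master regulator of stratified epithelia, showed 8.02, 7.88 and 10.64 in stomach and 5.31, 5.47 and 5.11 in duodenum. Stomach pool 3 was the high one, and the difference of -3.55 ± 0.52 was -2.65 without it. Its 4 probe sets ranged from -3.55 to -0.30. Among the GATA factors, Gata6 was higher by 0.81 ± 0.11 and Gata4 was not called (0.07 ± 0.12, interval -0.18 to 0.32). Klf4 (-1.53 ± 0.26) and Klf5 (-0.79 ± 0.11) were lower and Ovol1 was higher (0.96 ± 0.13).

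On the stomach side, genes of acid and enzyme secreting cells were mostly lower in duodenum. Of 15 measured, 11 were called lower and 2 higher, with a median of -3.03 that was -2.07 with probe sets of a gene averaged and -3.65 over the 12 left without dim genes. Atp4a, the catalytic subunit of the proton pump, stood at 12.07, 12.40 and 13.02 in stomach and 6.44, 6.38 and 6.52 in duodenum (-6.05 ± 0.22, 66.3-fold, limma adjusted p = 1.5e-10), and its partner Atp4b differed by -4.89 ± 0.16. Kcne2, a potassium channel subunit needed for acid release, differed by -3.39 ± 0.17, and Cblif, the gene of intrinsic factor, by -3.90 ± 0.19. Among the proteases, pepsinogen Pga5 was at 14.48, 14.97 and 14.94 against 8.49, 9.05 and 10.60 (-5.42 ± 0.48, or -6.03 without duodenum pool 3). Pgc differed by -3.93 ± 0.43 and the milk-clotting enzyme Cym by -3.03 ± 0.43. Lipf, named as gastric lipase, went against the group with 4.32, 4.18 and 4.08 in stomach and 5.89, 7.64 and 7.32 in duodenum (2.76 ± 0.30). Its stomach level was near the 5th percentile of all genes, so this difference is best read as a minimum. The histamine receptor Hrh2 lay between 6.16 and 6.37 in every pool.

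Genes of the gastric surface gave 12 of 14 called lower and none higher, with a median of -3.67. Gkn1 and Gkn2, secreted proteins of surface mucous cells, differed by -5.85 ± 0.44 and -5.36 ± 0.43. Gkn1 was at 12.62, 13.50 and 13.28 in stomach and at 6.83, 6.36 and 8.67 in duodenum. Duodenum pool 3 was the highest of its tissue for both, and without it the differences were -6.54 and -6.05. The same pool was high for Bpifb1, a secreted lipid binder (-6.81 ± 0.70, or -7.56 without it), for Mal, an apical sorting protein (-6.17 ± 0.64, or -6.89), and for Sptssb of sphingolipid synthesis (-5.48 ± 0.49, or -6.18). Gsdmc2, a gasdermin, had the largest difference of the stomach side, with 11.31, 12.05 and 11.20 in stomach and 4.70, 4.60 and 4.73 in duodenum (-6.84 ± 0.37). Its duodenum level was close to the 5th percentile of all genes, 4.5, where signal and array background cannot be told apart, so the difference is best read as a minimum. Muc1, a mucin of the cell membrane, differed by -4.92 ± 0.33, and Muc5ac, the secreted mucin of the stomach surface, by -2.76 ± 0.28.

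Squamous genes were higher in stomach, although the tissue was taken as antrum. Of 21 measured, 17 were called lower in duodenum and 1 higher, with a median of -3.07. Krt13 and Krt4, the keratin pair of the upper layers of moist stratified epithelia, stood at 12.32, 12.47 and 13.48 and at 11.51, 12.25 and 12.55 in the stomach pools. In duodenum they were at 5.99, 5.83 and 6.24 and at 6.44, 6.48 and 6.36, so the differences were -6.74 ± 0.29 and -5.68 ± 0.20. Krtdap, of differentiating keratinocytes, was at 9.29, 11.23 and 11.72 against 4.90, 5.10 and 5.05 (-5.73 ± 0.41, or -6.46 without stomach pool 1). The basal layer gene Krt5 was at 9.99, 9.52 and 12.32 against 6.82, 6.71 and 6.67 (-3.88 ± 0.48), and Krt14, its partner, was at 6.55, 6.33 and 9.17 against 5.23, 5.30 and 5.43 (-2.03 ± 0.49). Stomach pool 3 was the high one for both basal keratins, as for Trp63, and without it the differences were -3.02 and -1.12. Ivl, the gene of involucrin, was called higher by 0.39 ± 0.13, a call lost without any 1 of 4 pools (limma adjusted p up to 0.0878).

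**Figure D3:**
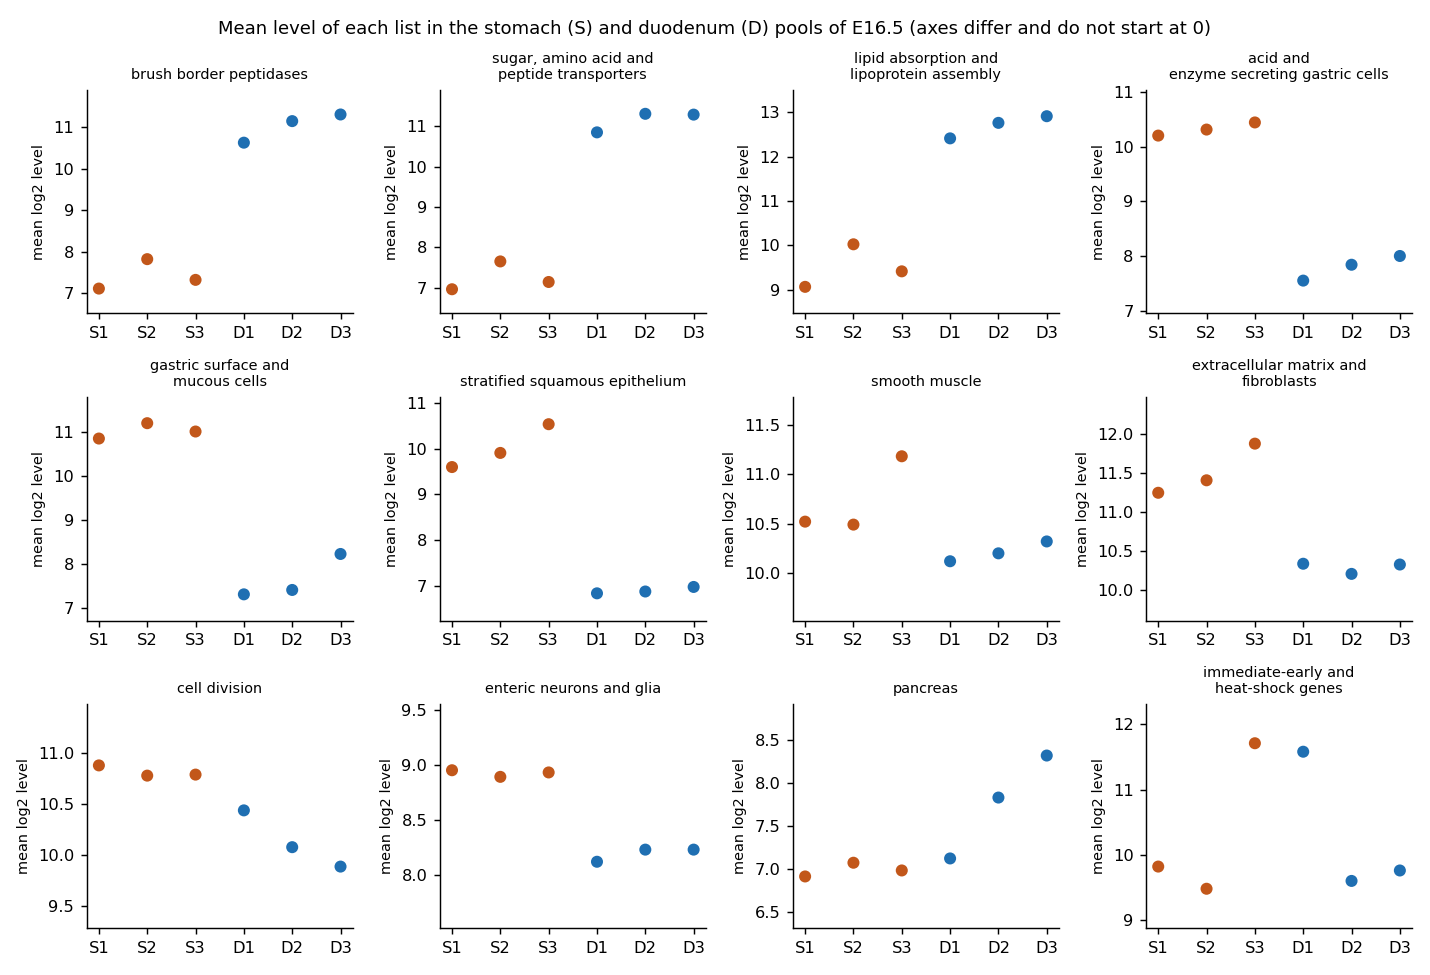
Mean log2 level (vertical axis, not starting at 0) of 12 gene lists in each stomach (S1 to S3, orange) and duodenum (D1 to D3, blue) pool of E16.5. Stomach pool 2 is the highest stomach pool for peptidases (7.82), nutrient transporters (7.65) and lipid genes (10.02), duodenum pool 3 is the highest duodenum pool for gastric surface genes (8.23) and pancreas (8.32), and immediate-early genes are high in S3 (11.71) and D1 (11.58).

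Trefoil factors, small peptides that are secreted with mucus and protect the lining, divided cleanly between the tissues. Tff1 stood at 14.57, 15.00 and 14.73 in stomach and 10.50, 10.12 and 11.72 in duodenum (-3.99 ± 0.33), and Tff2 differed by -3.35 ± 0.45. Tff3 had the reverse pattern, with 9.39, 9.52 and 9.24 in stomach and 13.07, 13.99 and 13.70 in duodenum (4.2 ± 0.49, limma adjusted p = 3.94e-06). None of the 3 genes overlapped between the tissues.

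Among mucins and genes of goblet and Paneth cells, 10 of 15 were higher and 3 lower. The share of lower genes was near the 23.3% of all genes. Muc2, the gel-forming mucin of goblet cells, was at 5.88, 6.18 and 5.99 against 8.95, 10.42 and 10.10 (3.81 ± 0.43), with duodenum pool 1 the lowest of its tissue. Muc13, a membrane mucin, differed by 4.94 ± 0.75, Zg16 by 3.62 ± 0.35 and Spink4 by 3.18 ± 0.74. Atoh1, the factor that commits cells to the secretory lineage, was at 6.25, 5.92 and 6.02 against 7.64, 8.38 and 7.88 (1.90 ± 0.31). The goblet factor Spdef was on the stomach side, with 10.29, 9.98 and 9.74 against 7.21, 7.85 and 7.88 (-2.36 ± 0.21), as was the mucin-folding gene Agr2 (-1.45 ± 0.27), which gastric mucous cells also use. The Paneth cell gene Lyz1 was not called (0.43 ± 0.27, interval -0.14 to 1.0).

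Defence genes of the mucosa split, with 8 of 20 higher and 7 lower and a median of 0.13 (1.19 over the 13 left without dim genes). Leap2, a liver and gut peptide with antimicrobial and hormonal activity, was at 5.96, 6.98 and 6.22 against 12.22, 13.18 and 13.36 (6.53 ± 0.28, limma adjusted p = 5.1e-10). Reg1 differed by 6.34 ± 0.73, the chemokine Ccl25, which draws lymphocytes to the small intestine, by 5.12 ± 0.62, and Pigr, which carries immunoglobulin A across the epithelium, by 3.85 ± 0.25. Higher in stomach were the chemokine Cxcl15 (-2.02 ± 0.20), the protease inhibitor Slpi (-1.86 ± 0.42, or -1.09 without stomach pool 2) and the receptor Tlr2 (-1.64 ± 0.17). The receptor Tlr5, which senses flagellin, was higher in duodenum by 1.24 ± 0.16, so the 2 receptors lay on opposite sides.

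Hormone genes were called on both sides, with 11 of 22 enteroendocrine genes higher and 6 lower, a share of lower genes near the 23.3% of all genes. Cck, for cholecystokinin, was at 5.30, 6.42 and 5.53 in stomach and 10.61, 11.42 and 10.93 in duodenum (5.24 ± 0.35, 37.7-fold). Sct and Gip, the genes of secretin and of the glucose-dependent insulinotropic peptide, differed by 4.13 ± 0.48 and 4.02 ± 0.23. Gast, for gastrin of the antrum, was at 8.74, 8.80 and 8.24 against 6.39, 6.78 and 6.55 (-2.02 ± 0.28). The proglucagon gene Gcg was also lower in duodenum, with 7.89, 8.19 and 7.44 against 5.19, 5.39 and 5.49 (-2.48 ± 0.32), and so was Pyy (-1.34 ± 0.18). Sst, which endocrine cells of both organs use, was higher in duodenum by 1.59 ± 0.27. Neurod1 of maturing endocrine cells was higher by 1.65 ± 0.24, while Neurog3 of their progenitors (0.25 ± 0.27) and Ghrl for ghrelin (0.71 ± 0.45) were not called.

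Tight junction genes had a median of 0.12, which turned to -0.05 after quantile normalization and to -0.04 without stomach pool 3, with 7 of 17 higher and 7 lower. The claudins exchanged places. Cldn2, which forms a pore for sodium, was at 7.28, 8.87 and 7.22 in stomach against a duodenum mean of 13.27 ± 0.23 (SD, n = 3), a difference of 5.48 ± 0.67, and Cldn15, with a like role in the small intestine, differed by 2.91 ± 0.25. Cldn18, a sealing claudin of the stomach, was at 13.70, 13.60 and 13.51 against 7.51, 6.81 and 8.79, and Cldn6 differed by -3.11 ± 0.35. Tjp1, the scaffold shared by all these junctions, was not called (-0.06 ± 0.14). General epithelial genes had a median of -0.59 with 9 of 16 lower and 2 higher. Cdh1 lay within 12.73 to 13.03 in all pools and was not called (-0.03 ± 0.13, interval -0.30 to 0.24). Krt8, Krt18 and Krt19, the keratins of simple epithelia, were lower, with differences of -0.55 ± 0.11, -1.11 ± 0.16 and -1.32 ± 0.11. Epcam was higher by 0.72 ± 0.22, a call lost without duodenum pool 1 or stomach pool 3 (limma adjusted p up to 0.0893), after quantile normalization (0.47) and for the mean of its probe sets (0.30).

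Signalling pathways differed in how many of their genes were called. In the Hedgehog pathway, in which epithelial ligands act on receptors in the mesenchyme, 13 of 18 genes were called lower in duodenum and none higher, with a median of -0.91. Both gut ligands were lower. Shh was at 12.37, 12.45 and 12.31 in stomach and 10.13, 9.24 and 9.55 in duodenum (-2.74 ± 0.19, 6.67-fold, limma adjusted p = 2.81e-08), and Ihh differed by -1.13 ± 0.18. Of the receptors and transducers, Ptch1 was lower, with a difference of -0.65 ± 0.17 with overlapping pools, Smo by -1.14 ± 0.17 (its probe sets from -1.46 to 0.06) and Gli2 and Gli3 by -1.08 ± 0.23 and -1.09 ± 0.18. The targets Gli1, at 8.07, 7.81 and 8.39 against 7.03, 6.32 and 6.08 (-1.61 ± 0.26), and Foxf1 (-0.97 ± 0.20) were lower as well. Sufu, which holds GLI proteins in check, was not called (0.03 ± 0.11). Duodenum pool 1 was the highest of its tissue for Shh, Gli1, Ptch1 and Smo.

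Of 31 Wnt ligands, receptors and secreted regulators, 17 were lower and 2 higher, with a median of -0.75. The ligands Wnt5a and Wnt4 were lower, with differences of -2.13 ± 0.14 and -2.12 ± 0.19. Among receptors, Fzd2 was at 10.18, 10.19 and 10.01 against 7.74, 7.95 and 8.13 (-2.19 ± 0.16). The secreted antagonists Sfrp2 and Sfrp1 were lower, with differences of -2.67 ± 0.24 and -1.12 ± 0.12, and the agonists Rspo1 and Rspo2 by -1.24 ± 0.21 and -0.85 ± 0.23, so activators and inhibitors were found on the same side. The 2 probe sets of Rspo2 gave -0.85 and 0.23, and their mean was not called (-0.31). Sfrp5, another antagonist, was at 7.37, 7.36 and 7.56 against 8.90, 8.86 and 8.62 (1.36 ± 0.16). Of 17 nuclear factors and targets 8 were lower and none higher. The stem cell marker Lgr5, whose 2 probe sets gave -1.65 and 0.13, was at 9.10, 8.14 and 9.12 against 7.56, 7.11 and 6.75 (-1.65 ± 0.34). Cd44, Ephb3, Ccnd1 and Sox9 were lower, with differences of -1.96 ± 0.17, -1.40 ± 0.16, -1.34 ± 0.13 and -1.26 ± 0.21. The 4 probe sets of Cd44 ranged from -1.96 to 0.23, and their mean was called (-1.33). The feedback target Axin2 was not called (-0.44 ± 0.23, interval -0.93 to 0.05).

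The BMP and TGF-beta genes were lower in 15 of 31 cases and higher in 2, with a median of -0.42. The ligand Bmp4 was not called (0.10 ± 0.26, interval -0.45 to 0.66) and Bmp7 was higher by 0.63 ± 0.13. The target genes Id1, Id3 and Id4 were lower, Id1 at 12.38, 12.86 and 12.07 against 10.97, 10.28 and 10.24 (-1.94 ± 0.22), Id3 by -1.35 ± 0.15 and Id4 by -1.77 ± 0.14. The receptor Bmpr1b and the activin antagonist Fst were lower, with differences of -2.37 ± 0.30 and -3.12 ± 0.38. The 3 probe sets of Bmpr1b ranged from -2.37 to -0.46. Grem1, a BMP antagonist of the mesenchyme, was called higher (0.87 ± 0.32), with 7.42, 7.54 and 7.38 against 9.02, 8.24 and 7.69. Its call was lost without any 1 of 5 pools (limma adjusted p up to 0.185).

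In the Notch pathway, which sets the balance of absorptive and secretory cells, 12 of 22 genes were lower and 5 higher. The share of higher genes was near the 22.8% of all genes. The receptors Notch2 and Notch3 were lower, with differences of -1.61 ± 0.18 and -1.93 ± 0.26 and the target Hes1 by -0.64 ± 0.14. The 2 probe sets of Notch2 gave -1.61 and 0.04, and their mean was called (-0.79). The ligand Dll1, which secretory progenitors carry, was at 8.18, 8.48 and 8.29 against 10.08, 9.53 and 9.66 (1.44 ± 0.20). The target Nrarp and the Notch-opposing gene Hes6 were also higher (0.66 ± 0.16 and 0.85 ± 0.11). Of 18 FGF genes 5 were lower and 3 higher, a share of lower genes near the 23.3% of all genes. The receptor Fgfr2 and the response genes Etv5 and Spry1 were lower, with differences of -1.37 ± 0.16, -2.31 ± 0.22 and -1.50 ± 0.24. The co-receptor Klb and the receptor Fgfr4, which together bind FGF15, were higher, Klb by 2.94 ± 0.25 and Fgfr4 by 0.75 ± 0.18. The 2 probe sets of Klb gave -0.08 and 2.94. Fgf15 itself was not called and lay between 5.02 and 5.49.

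**Figure D4:**
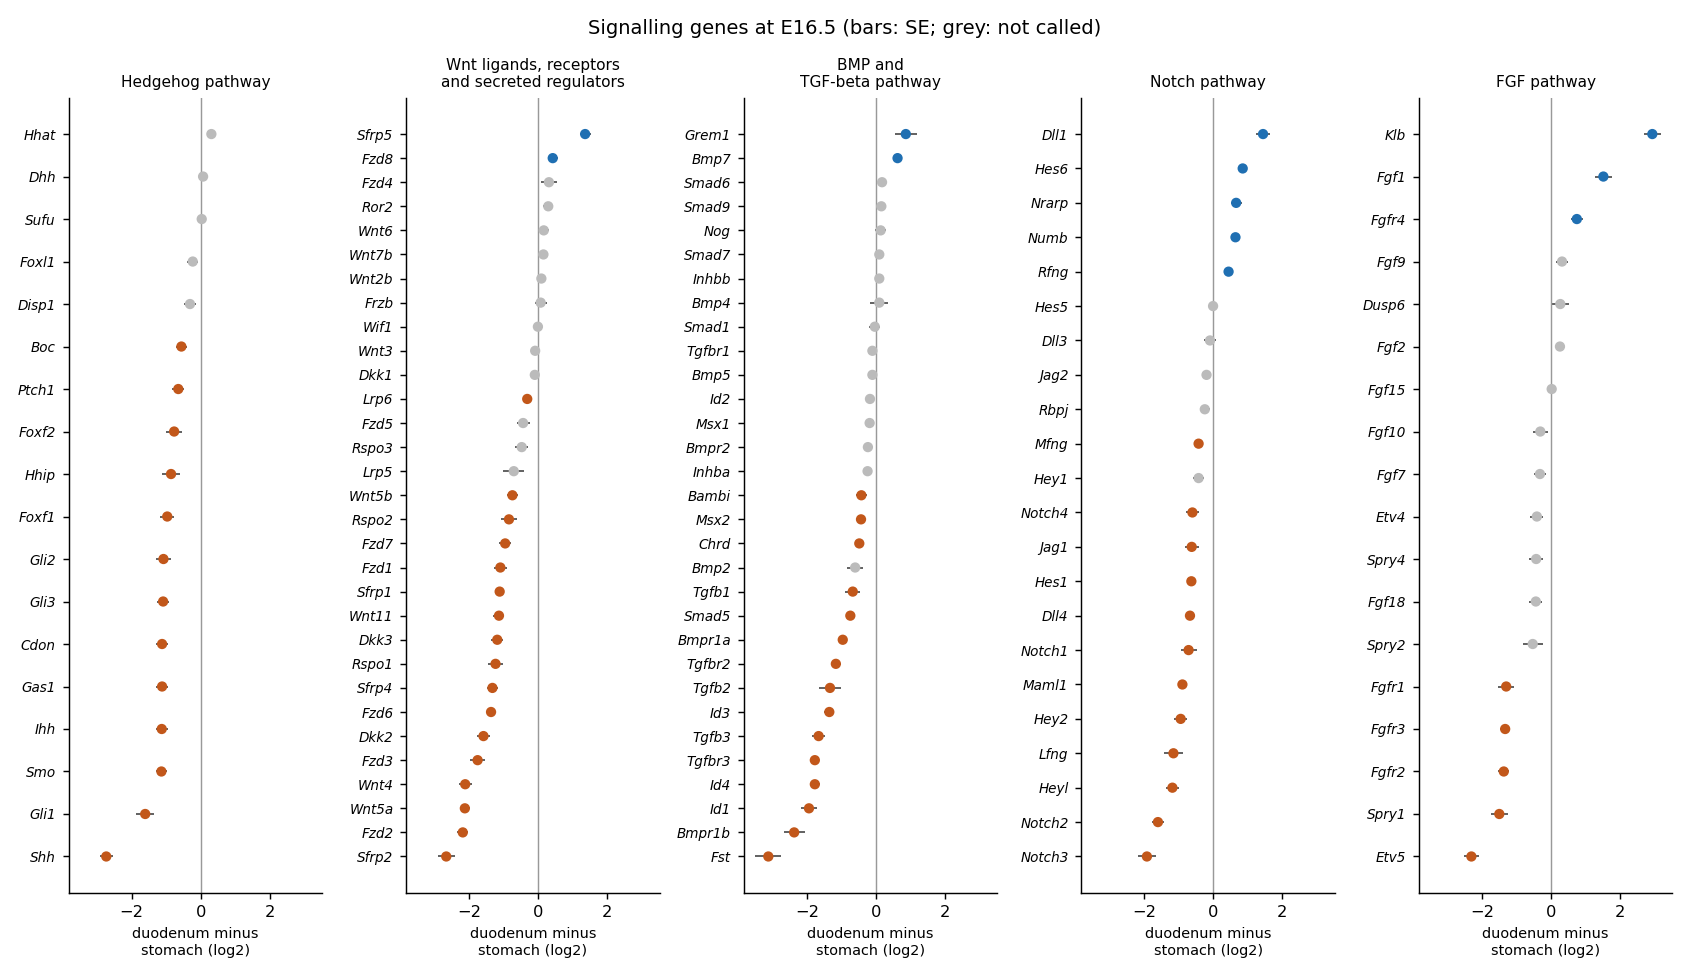
Difference between duodenum and stomach at E16.5 (horizontal axis, log2, bars SE) for each measured gene of 5 signalling pathways, ordered within a pathway, with orange for called lower, blue for called higher and grey for not called. The called genes are lower in 13 of 18 Hedgehog, 17 of 31 Wnt, 15 of 31 BMP and TGF-beta, 12 of 22 Notch and 5 of 18 FGF genes.

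Regulators of the stomach and pyloric mesenchyme were lower in 9 of 18 cases and higher in 2. Barx1, which patterns the stomach mesenchyme, had a mean of 11.40 ± 0.35 (SD, n = 3) in stomach and was at 6.88, 7.09 and 6.97 in duodenum (-4.42 ± 0.23). Nr2f1 and Nr2f2 were lower, with differences of -3.57 ± 0.34 and -2.26 ± 0.19, Isl1 by -3.14 ± 0.33 and Six2 by -2.43 ± 0.21. The higher ones were Tbx3, at 7.52, 7.53 and 7.95 against 10.12, 9.92 and 10.43 (2.49 ± 0.16), and Nkx2-3, which acts in the mesenchyme of midgut and spleen (1.49 ± 0.29). The 5 probe sets of Tbx3 ranged from -0.04 to 2.56. Of 25 Hox genes 10 were lower and none higher, with 6 lower when duodenum pool 3 was left out. Hoxc4 was at 8.92, 8.57 and 9.41 against 7.45, 7.16 and 7.08 (-1.74 ± 0.16). Hoxc5 was lower, with a difference of -2.15 ± 0.37, or -1.54 without stomach pool 3. Hoxc8 was at 4.97, 5.17 and 7.66 against 4.53, 4.56 and 4.23, where stomach pool 3 set most of the difference of -1.49 ± 0.46, which was -0.63 and still called without it. The call of Hoxc8 was lost without duodenum pool 3 (limma adjusted p = 0.0501) and with the 6 arrays alone (0.0977).

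Matrix and fibroblast genes were lower in 21 of 25 cases and higher in none, with a median of -1.14. Eln, for elastin, was at 10.59, 10.17 and 11.26 against 8.21, 8.01 and 8.35 (-2.48 ± 0.20). Fn1, Lox and Col1a1 were lower, with differences of -2.03 ± 0.17, -1.88 ± 0.18 and -1.83 ± 0.24, and Vim by -0.98 ± 0.18. Pdgfra, a marker of subepithelial fibroblasts, was not called (-0.13 ± 0.17, interval -0.50 to 0.24). Smooth muscle genes were lower in 11 of 19 cases, but by less, with a median of -0.56. Acta2 was lower, with a difference of -0.47 ± 0.12 (-0.31 and not called for the mean of its probe sets), Cnn1 by -0.90 ± 0.22 and Myh11 by -0.81 ± 0.28, and the call of Myh11 was lost in several settings. These were the fits without stomach pool 3 (-0.41, limma adjusted p = 0.146), duodenum pool 1 (0.0805) or duodenum pool 2 (0.0549), with the 6 arrays alone (0.0749) and with its probe sets averaged (-0.49, adjusted p = 0.0673). Des and Mylk were not called (-0.07 ± 0.28 and 0.16 ± 0.12). The pacemaker genes Kit and Ano1, which mark interstitial cells of Cajal, were lower as well. Kit was at 11.29, 11.14 and 10.73 against 8.23, 7.80 and 7.47 (-3.22 ± 0.24) and Ano1 was lower, with a difference of -2.97 ± 0.28. Ano1 is also made by some epithelial cells.

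Genes of enteric neurons and glia were lower in 14 of 17 cases and higher in 1, with a median of -0.87. Elavl4, Tubb3 and Snap25 of neurons were lower, with differences of -1.17 ± 0.18, -1.26 ± 0.15 and -1.14 ± 0.14, and Hand2 by -1.71 ± 0.23. The 2 probe sets of Snap25 gave -1.14 and 0.07, with a mean of -0.54 that was called. Vip, a neuropeptide gene, was not called and lay at 10.12 to 10.53 in all pools (0.00 ± 0.16, interval -0.35 to 0.35). The glial gene S100b was the exception, at 6.69, 6.80 and 6.70 against 7.77, 8.38 and 8.33 (1.43 ± 0.16). In leukocytes 6 of 15 genes were higher and 1 lower. Csf1r, the receptor of macrophages, was at 10.19, 10.60 and 10.59 against 12.39, 13.18 and 13.42 (2.54 ± 0.23) and Ptprc, the common leukocyte antigen CD45, was higher by 0.96 ± 0.13. Of other macrophage genes, Lyz2 was not called (0.01 ± 0.25) and Cd14 was lower (-1.68 ± 0.32).

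Neighbouring tissues and circulating cells were followed by lists of their own. Of 10 pancreas genes 2 were called higher, a share near the 22.8% of all genes. The mean level of the list was 7.12, 7.83 and 8.32 in duodenum against 6.91, 7.07 and 6.98 in stomach. Ctrb1, for chymotrypsinogen, was at 7.35, 8.04 and 7.0 in stomach and 8.93, 10.15 and 11.27 in duodenum, where the pools spread widely (2.65 ± 0.71, or 3.25 without duodenum pool 1). Cpa1 differed by 1.71 and was not called, though it was in several other settings. Among these were the 6 arrays alone (limma adjusted p = 0.0423), quantile normalization (0.041) and the fit without duodenum pool 1 (2.38, adjusted p = 0.0108). Ptf1a, the defining factor of the exocrine pancreas, lay between 4.83 and 5.37 in every pool, and Ins2 between 7.13 and 7.44. In liver 3 of 14 genes were higher, also near that share of all genes, and none lower. Serpina1b was higher by 2.93 ± 0.39, or 2.31 without stomach pool 3, while Alb was not called and was at 11.61, 11.18 and 8.59 in stomach and 9.22, 7.87 and 9.92 in duodenum (-1.46 ± 0.70). Of 8 genes of mesothelium and spleen 4 were lower and 1 higher. The lower ones included Wt1 and Msln of the mesothelium (-1.70 ± 0.27 and -1.55 ± 0.26), and the higher one was Podxl, for a sialomucin that endothelium and some epithelia also carry (1.47 ± 0.13). Endothelial genes had 1 of 15 higher and 1 lower and erythroid genes 1 of 10 in each direction.

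Cell division genes were lower in duodenum in 23 of 27 cases and higher in none, with a median of -0.68, although none was as much as 4-fold lower. Top2a was at 11.84, 11.87 and 11.91 against 11.14, 10.69 and 10.51 (-1.09 ± 0.12), Aurkb was lower, with a difference of -1.11 ± 0.14 and Mcm3, of the replicative helicase, by -1.03 ± 0.22 (its probe sets from -1.36 to 0.18). Mki67 was at 12.54, 12.40 and 12.57 against 12.40, 11.62 and 11.63 (-0.62 ± 0.17). Duodenum pool 1 was the highest of its tissue for the list as a whole, at 10.44 against 10.08 and 9.89, and its Mki67 level equalled the lowest stomach pool at 12.40. Of the inhibitors of cyclin-dependent kinases, Cdkn2b and Cdkn1c were higher by 1.69 ± 0.19 and 0.69 ± 0.10, and Cdkn2c and Cdkn1a lower, with differences of -1.06 ± 0.11 and -0.73 ± 0.15. Reference genes were not all level, with 5 of 11 called higher, none lower and a median of 0.15. Over the other settings 4 to 7 were called higher. Actb, Tbp and Hprt were not called (0.15 ± 0.10, 0.11 ± 0.12 and 0.03 ± 0.11), but Gusb, a lysosomal enzyme, was at 10.36, 10.49 and 10.09 against 11.79, 12.61 and 12.41 (1.96 ± 0.19) and B2m was higher by 1.43 ± 0.23.

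The same comparison at E14.5 called 1144 genes (6.29%), 703 higher in duodenum (3.86%) and 441 lower (2.42%), with 2 duodenum samples in place of 3. Of the genes called at E16.5, 759 were called at E14.5 with the same sign and 95 with the opposite sign. Of these 95, 20 went from higher in stomach to higher in duodenum and 75 the other way. The change of the difference between the ages was tested as an interaction, because a call at only 1 age does not show a change. That test called 4996 genes (27.5%), 2167 with a rise toward duodenum (11.9%) and 2829 with a rise toward stomach (15.5%). The E16.5 and E14.5 differences come from separate pools, but the change contains the E16.5 difference, so genes picked for a large difference at E16.5 are more likely to show a change. Of the 582 genes at least 4-fold higher, 132 were called higher at E14.5 and 495 changed toward duodenum. Of the 332 at least 4-fold lower, 146 were called lower at E14.5 and 274 changed toward stomach.

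Absorptive genes fell into those already apart at E14.5 and those that were not. Mme was level at E14.5 (-0.04 ± 0.57), so its change was 6.72 ± 0.76 (7.38 without stomach pool 2), and Leap2 (0.03 ± 0.31), Slc15a1 (0.21 ± 0.32), Slc6a19 (0.22 ± 0.46) and Naaladl1 (0.07 ± 0.19) were not called at that age either. Cps1 and Fabp2 were already higher by 6.14 ± 0.79 and 4.96 ± 0.76, and their changes were not called (-1.25 ± 1.06 and -1.57 ± 1.01). The change of Fabp2 contains its E16.5 difference, which is best read as a minimum, so this change cannot show whether the difference stayed level. S100g was the absorptive example of a smaller difference at the later age, 4.62 ± 0.40 at E14.5 against 2.43 ± 0.36, a change of -2.19 ± 0.54 (limma adjusted p = 0.0074). By list, 12 of 14 nutrient transporters, 8 of 10 peptidases, 15 of 23 lipid genes, 9 of 14 microvillus genes, 10 of 16 genes for metals and vitamins and 6 of 12 salt and bile acid carriers changed toward duodenum. Of the disaccharidases and phosphatases only 1 of 6 did, a share near that of all genes. That count does not show that these genes stayed level, as their median change was 2.16 against 0.00 over all genes. Toward stomach changed 1 lipid gene, 1 microvillus gene and 2 genes for metals and vitamins.

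Several transcription factors were already apart at E14.5. Cdx2 differed by 3.88 ± 0.27 at E14.5 and its change was -0.05 ± 0.36. Isx, Prdm1 and Onecut2 likewise differed by 4.83 ± 0.24, 4.25 ± 0.40 and 4.06 ± 0.20 at E14.5, with changes of 0.04 ± 0.32, 0.12 ± 0.53 and -0.49 ± 0.27 that were not called. In the list 10 of 20 were called higher at E14.5 and 7 changed toward duodenum. Creb3l3 was an exception, with -0.03 ± 0.40 at E14.5 and a change of 4.28 ± 0.53. Barx1 was also already apart, on the stomach side (-3.98 ± 0.26 at E14.5, change -0.44 ± 0.35), and Sox2 was already lower, with a difference of -2.91 ± 0.45 and changed by a further -2.57 ± 0.60.

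**Figure D5:**
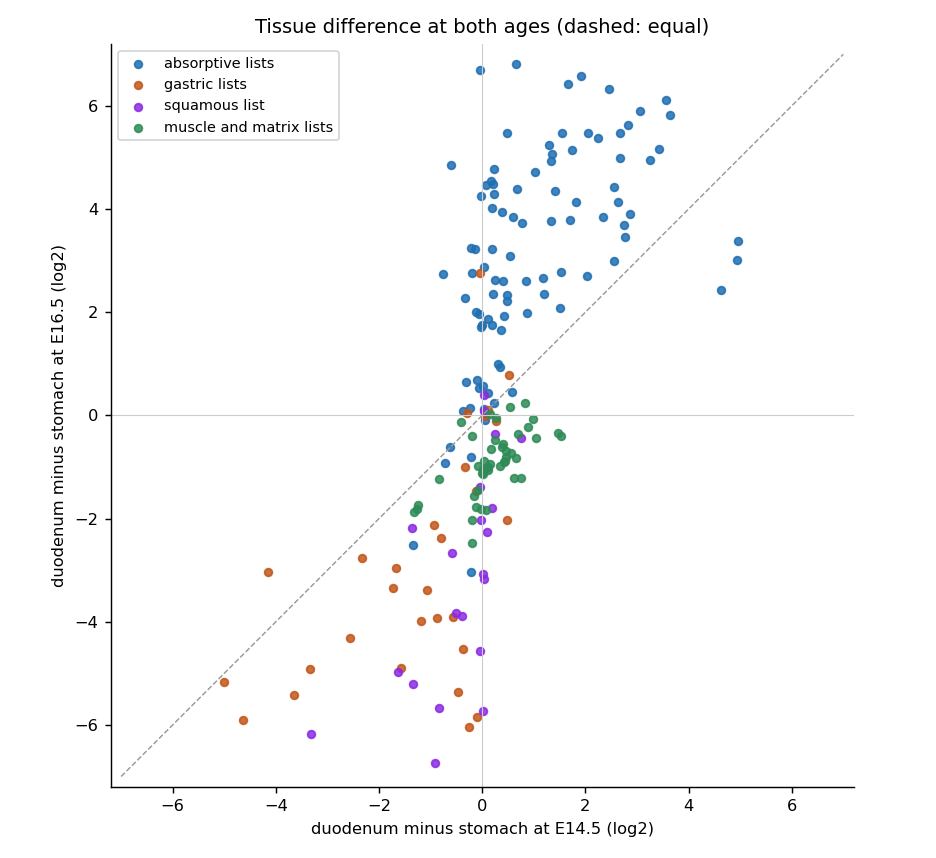
Difference between duodenum and stomach (log2) at E14.5 (horizontal axis) and E16.5 (vertical axis) for members of the absorptive, gastric, squamous, and muscle and matrix lists, with a dashed line where the ages are equal. Most absorptive genes lie above the line and most squamous genes below it, with Mme at -0.04 and 6.69, Krt13 at -0.92 and -6.74, and S100g at 4.62 and 2.43.

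Among stomach genes, Atp4a differed by -0.25 ± 0.25 at E14.5 and changed by -5.80 ± 0.34, and Gkn1 and Gkn2 differed by -0.10 ± 0.49 and -0.47 ± 0.49 and changed by -5.75 ± 0.66 and -4.89 ± 0.65. Squamous genes changed toward stomach in 16 of 21 cases, with Krt13 at -5.82 ± 0.43. Cldn18 and Anxa10 were different: they were lower, with differences of -4.63 ± 0.58 and -5.0 ± 0.60 at E14.5, and their changes of -1.27 ± 0.77 and -0.16 ± 0.81 were not called. Signalling genes also changed. Shh was higher in duodenum at E14.5 (0.80 ± 0.22, limma adjusted p = 0.039) and lower at E16.5, a change of -3.54 ± 0.29, and Rspo2 went from 1.19 ± 0.26 to -0.85 ± 0.23. Sfrp5 kept its direction and fell by 2.38 from 3.75 ± 0.18 to 1.36 ± 0.16. Neurog3 was higher in duodenum at E14.5 (2.60 ± 0.30), with a change of -2.35 ± 0.40. Cell division genes showed no called member at E14.5 and 20 of 27 changed toward stomach. Matrix genes changed toward stomach in 19 of 25 cases and smooth muscle genes in 14 of 19.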

How the data were processed

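Tissue of 3 segments of the embryonic mouse gut was profiled on 18 Affymetrix arrays. Per the labels and the submitters' processing notes, the authors scanned the arrays with GCOS and deposited RMA values, which are log2 intensities. Software versions were not given in the sources used here, nor was it stated whether all arrays shared 1 RMA run. The table holds 45101 probe sets: 34945 with 1 gene symbol, 932 with several, 9160 with none and 64 controls. Symbols came from the platform annotation, 34741 of the named probe sets had their gene identifier in RefSeq (GRCm38.p6), and no symbol differed there. No depth exists for arrays; their number limits the precision.

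Group means over the 6 groups were fitted to 18193 genes with limma 3.58.1 in R 4.3.3, with 11 residual degrees of freedom over 17 samples, after duodenal arrays 1 and 2 of E14.5 were averaged. Contrasts were duodenum minus stomach at each age and their difference, with Benjamini-Hochberg adjustment; intervals are 95%. The fit was checked on simulated data. Tables and figures were made in Python 3.11.15 with numpy 2.4.6, pandas 2.3.3, scipy 1.17.1 and matplotlib 3.10.9. Alternatives changed the samples fitted, a replicate block, the scaling, the choice of probe set, a filter on dim genes, the variance prior and each pool in turn.

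The genes and the 45 lists were chosen with earlier results of these data known. Genes named are the 12 largest rises and falls without overlap, for each list up to 6 called members with the largest difference, up to 4 of opposite sign and up to 3 not called, a set of anchor genes, the 6 largest changes with age in each direction and up to 6 genes of opposite sign at the ages. A further 44 list members were named for their role after their values were seen: Abcg8, Aldh1a2, Ass1, Atoh1, Bmp4, Cym, Dpp4, Fabp1, Fabp2, Fgf15, Fos, Foxa3, Foxf1, Gli2, Gli3, Hes1, Hprt, Id3, Ins2, Kcne2, Klf4, Klf5, Krt14, Krt5, Krt8, Mki67, Muc5ac, Neurod1, Nr1h4, Onecut2, Ppara, Ptf1a, Rspo1, Rspo2, S100g, Sfrp1, Slc15a1, Slc40a1, Sst, Tbp, Tlr5, Tmprss15, Vil1 and Xpnpep2.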

Additional observations from a re-analysis of the deposited data

Results flagged for a closer look

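The difference between duodenum and stomach was not the same at E14.5 and E16.5 for 4996 genes by the limma interaction test, which compares the difference at the later age with that at the earlier age. The values in this section are that change on the log2 scale, positive where the difference moved toward duodenum.

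Changes toward duodenum included Mme at 6.72, Leap2 at 6.50, Meltf at 6.26, Mep1b at 6.17, Hyal5 at 6.16 and Smcp at 5.76, the 6 largest among genes with established names. Without stomach pool 2, Mme was at 7.38 and Meltf at 6.89. Smaller changes of the same sign were found for the transporters Slc6a19 (4.56) and Slc15a1 (4.28), the peptidase Naaladl1 (4.40) and the transcription factor Creb3l3 (4.28). Changes toward stomach included Krt13 at -5.82, Atp4a at -5.80, Gkn1 at -5.75, Krtdap at -5.75, Gkn2 at -4.89 and Krt4 at -4.85. Without duodenum pool 3 the changes of Gkn1 and Gkn2 were -6.44 and -5.58, and without stomach pool 1 that of Krtdap was -6.47. The regulators Sox2 (-2.57), Shh (-3.54), Sfrp5 (-2.38), Rspo2 (-2.03) and Neurog3 (-2.35) and the calcium carrier S100g (-2.19) also moved toward stomach.

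Of the 95 genes called at both ages with opposite signs, 20 went from higher in stomach to higher in duodenum and 75 the other way. The 6 described here had the largest value of the smaller of the 2 differences, and all were of the former kind. Maob, a monoamine oxidase, changed by 4.64, from -1.80 at E14.5 to 2.84 at E16.5, where it was at 10.80, 11.35 and 10.52 in stomach and 13.49, 14.02 and 13.68 in duodenum. Gpr50 changed by 4.45, Cyp2c23 by 3.23, Eya4 by 3.0, Akr1c13 by 2.94 and Cyp2d26 by 2.70.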

How the results depend on the processing

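The tissue differences rest on 3 pools a side, and stomach pools 1 to 3 and duodenum pools 1 and 3 each moved some named values by over 1.5-fold when left out. The number of genes called lay between 6920 and 9151 over the other settings and between 7340 and 8604 with 1 pool left out, against 8387. The count for the change with age ranged from 4172 to 5680 with 1 pool left out. Of 4585 called genes with more than 1 probe set, 3467 had all of them on the same side of 0. Among those called at least 4-fold the count was 363 of 403. Of the 441 named differences, 424 kept direction and call with the 6 arrays alone, 423 after quantile normalization, 420 with probe sets of a gene averaged and 408 of those that remained after dim genes were left out. With that averaging Dsc3 turned to -0.70, and Ier2, not called in the report, ranged from -0.60 without duodenum replicate 1, where it was called, to 0.32 with 1 pool left out.

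The counts of some lists moved by over 1.5-fold, and the cause was not tested. Lower Hox genes numbered 6 to 10 with 1 pool left out, the 6 without duodenum pool 3. Higher pancreas genes, 2 in the report, numbered 4 with the 6 arrays alone, 5 with arrays centred on their median over the genes tested, a setting chosen after the data were seen, 4 without dim genes and 1 to 5 with 1 pool left out. Higher liver genes numbered 5 with that centring. Higher erythroid genes numbered 0 with the 6 arrays alone, after quantile normalization and without dim genes, and 0 to 1 with 1 pool left out. Higher endothelial genes numbered 2 with either centring and without dim genes, and 0 to 2 with 1 pool left out. Lower kinase inhibitors numbered 2 with centring over the genes tested and 2 to 4 with 1 pool left out, and lower immediate-early genes 2 to 4.

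The medians of the tight junction, liver, erythroid, endothelial and immediate-early lists changed sign under at least 1 setting, and those of the other lists under none. Deviations of same-numbered duodenum and stomach pools correlated at 0.124, 0.345 and -0.085, and those of pools with different numbers at -0.317 to 0.209. With 3 pools a tissue these values cannot decide whether the numbers pair the pools. With the replicate block 8572 genes were called, 436 named differences were unchanged in direction and call, and 5 gained a call.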
